A study of Mus musculus with 6 samples.

Results

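The nicotinic acetylcholine receptor of skeletal muscle was described here through the 5 genes that encode its subunits, Chrna1, Chrnb1, Chrnd, Chrng and Chrne, out of 23073 genes with values. The members were chosen by name and not by a cut on their levels, with earlier results of these data known. The libraries came from mouse diaphragm muscle at E14.75 and fell into 3 groups of 2. In all 3 groups mRNA was selected on oligo-dT beads before sequencing. Wild-type libraries (numbers 5 and 6) and erbB3 mutant libraries (erbB3 KO, numbers 1 and 2) were made from total RNA of whole muscle. The Wnt1-Ribotag libraries (numbers 1 and 2) came from erbB3 wild-type embryos that carried Wnt1-Cre and the Ribotag allele, and held RNA precipitated with anti-hemagglutinin antibody from polysomes. Wnt1-Cre acts in cells of neural crest origin, which include Schwann cells, and switches on a hemagglutinin tag on a ribosomal protein. Diaphragms of a litter were pooled for each Wnt1-Ribotag library, which was made from a far smaller amount of RNA than a whole-muscle library. Wnt1-Ribotag libraries differed from mutant libraries in erbB3 genotype as well as in preparation, so those causes of a difference cannot be told apart. The study describes the whole-muscle libraries of a genotype as separate diaphragm samples, and the labels name no animal or litter.

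The muscle receptor is a pentamer of subunits around a cation channel that opens when acetylcholine released by the motor nerve binds. In fetal muscle the pentamer holds the α1, β1, δ and γ subunits, and in adult muscle the ε subunit takes the place of γ. Chrna1 encodes the α1 subunit, which carries the main part of the acetylcholine binding sites and binds α-bungarotoxin. Chrnb1, Chrnd, Chrng and Chrne encode the β1, δ, γ and ε subunits. The subunit genes are known to be driven in muscle by MyoD-family factors that bind the E-box CANNTG, and some are also driven in synaptic nuclei through the N-box CCGGAA, which is bound by ETS-family factors such as GABP. The study asked how muscle without Schwann cells differs from muscle with them, at an age when motor nerve terminals of the mutant are degenerating, in search of factors from muscle that act in this loss.

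On GRCm38, in GENCODE release M21, Chrna1 (ENSMUSG00000027107) spans chr2:73563215-73580338 on the minus strand and Chrnb1 (ENSMUSG00000041189) spans chr11:69784036-69795943 on the minus strand. Chrnd (ENSMUSG00000026251) at chr1:87190607-87200070 and Chrng (ENSMUSG00000026253) at chr1:87204657-87212694 lie on the plus strand, and Chrng starts 4586 bases after the end of Chrnd. Chrne (ENSMUSG00000014609) lies at chr11:70614883-70619216 on the minus strand. It overlaps 4930544D05Rik on the opposite strand (chr11:70615848-70616890), which had at most 0.0199 RPKM and was without reads in 2 libraries.

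The promoters of the fetal and the adult subunit genes are shown because the comparison of γ with ε is the one by which the receptor's type is read, and those of Chrna1 and Chrnb1 because they are driven in the same fibers. Each is the 250 bases before the start of the gene in RefSeq on GRCm38.p6, written 5′ to 3′ on the strand of the gene, and capitals mark CANNTG and CCGGAA. The windows are chr1:87205561-87205810 (plus strand, Chrng), chr11:70619195-70619444 (minus strand, Chrne), chr2:73580339-73580588 (minus strand, Chrna1) and chr11:69795938-69796187 (minus strand, Chrnb1). The RefSeq start of Chrng lies inside the longer GENCODE gene.
Chrng: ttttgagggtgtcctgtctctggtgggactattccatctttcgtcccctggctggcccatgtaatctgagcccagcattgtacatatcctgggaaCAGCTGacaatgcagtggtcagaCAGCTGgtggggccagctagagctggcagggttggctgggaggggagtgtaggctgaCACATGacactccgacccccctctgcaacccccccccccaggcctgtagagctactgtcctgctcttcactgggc
Chrne: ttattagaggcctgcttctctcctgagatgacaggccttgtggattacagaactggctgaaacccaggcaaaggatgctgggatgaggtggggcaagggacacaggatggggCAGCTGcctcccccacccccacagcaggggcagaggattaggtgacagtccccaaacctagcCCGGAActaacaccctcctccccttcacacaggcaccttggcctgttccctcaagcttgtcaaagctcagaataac
Chrna1: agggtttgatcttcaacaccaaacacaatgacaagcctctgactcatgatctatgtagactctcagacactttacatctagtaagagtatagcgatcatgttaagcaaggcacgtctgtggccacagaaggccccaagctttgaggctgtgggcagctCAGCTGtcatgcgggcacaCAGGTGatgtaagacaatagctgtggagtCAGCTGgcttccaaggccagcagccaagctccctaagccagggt
Chrnb1: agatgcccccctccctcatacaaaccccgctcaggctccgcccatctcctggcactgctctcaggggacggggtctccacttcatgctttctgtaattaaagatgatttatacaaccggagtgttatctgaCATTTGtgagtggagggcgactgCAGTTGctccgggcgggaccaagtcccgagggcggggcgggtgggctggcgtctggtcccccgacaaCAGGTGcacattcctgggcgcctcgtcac
The Chrng window held 3 copies of CANNTG, of which 2 were CAGCTG at -155 and -132 from the start. The Chrna1 window also held 3 copies, 2 of them CAGCTG at -92 and -44. The Chrnb1 window held 3 copies, none of them CAGCTG. The Chrne window held 1 copy, a CAGCTG at -138, and was the only window of the 4 with CCGGAA, at -76. CAGCTG is a form of CANNTG and was counted under both. Searched on both strands, CANNTG was found in 66.2% of 32851 RefSeq promoter windows of the same length, CAGCTG in 13.0%, at least 2 copies of CAGCTG in 1.26% and CCGGAA in 12.0%. A match is a description of the sequence and was not tested as a site.

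The authors deposited RPKM, reads scaled to gene length and to sequencing depth. Comparisons of level between genes rest on the gene lengths used, which were not given in the sources used here. Where a gene had no reads, the file gives the value of 1 read in that library, the floor, in place of 0. The depth implied by the floor values lay between 100178863 and 230216660 mapped reads per library, and 17205 to 20349 genes were above the floor. Erbb3, the gene inactivated in the mutant, had 16.5 and 15.8 RPKM in wild-type, 21.5 and 11.9 in mutant and 19.5 and 25.3 in Wnt1-Ribotag libraries, so its transcript level did not check the genotype labels. Among 9 Schwann cell markers, Sox10 was at 2.89 and 2.16 RPKM in wild-type, 0.00854 and 0.0178 in mutant and 15.6 and 32.2 in Wnt1-Ribotag libraries. The labelled tissue carried its markers: the 15 skeletal muscle markers measured of 16 listed, led by Mylpf and Acta1, were above the floor in all 6 libraries, with summed levels of 4602 and 3780 RPKM in wild-type, 7929 and 5528 in mutant and 4291 and 4037 in Wnt1-Ribotag libraries. The Wnt1-Ribotag sums were thus near those of whole wild-type muscle, and which cells the subunit transcripts in those libraries came from was not tested. In bulk RNA, fewer cells of a type and less RNA per cell cannot be told apart.

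At E14.75 the diaphragm held the transcripts of a fetal receptor. Chrng, the γ subunit gene, was the most abundant member in 5 of the 6 libraries, with Chrnb1 next. In mutant 2 the order was Chrnb1, Chrna1, Chrng and Chrnd. Chrnd was the lowest of the 4 fetal subunit genes except in Wnt1-Ribotag 2, where Chrna1 was. Summed over the 5 genes, the level was 79.5 and 73.9 RPKM in wild-type, 106.6 and 59.3 in mutant and 94.7 and 89.9 in Wnt1-Ribotag libraries. The mutant libraries thus held both the highest and the lowest sum, and every other library lay between them. Chrng made up 26.5% of the sum in mutant 2 and between 35.6% and 41.2% in the other libraries, while Chrne made up less than 0.1% everywhere.

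**Figure D1:**
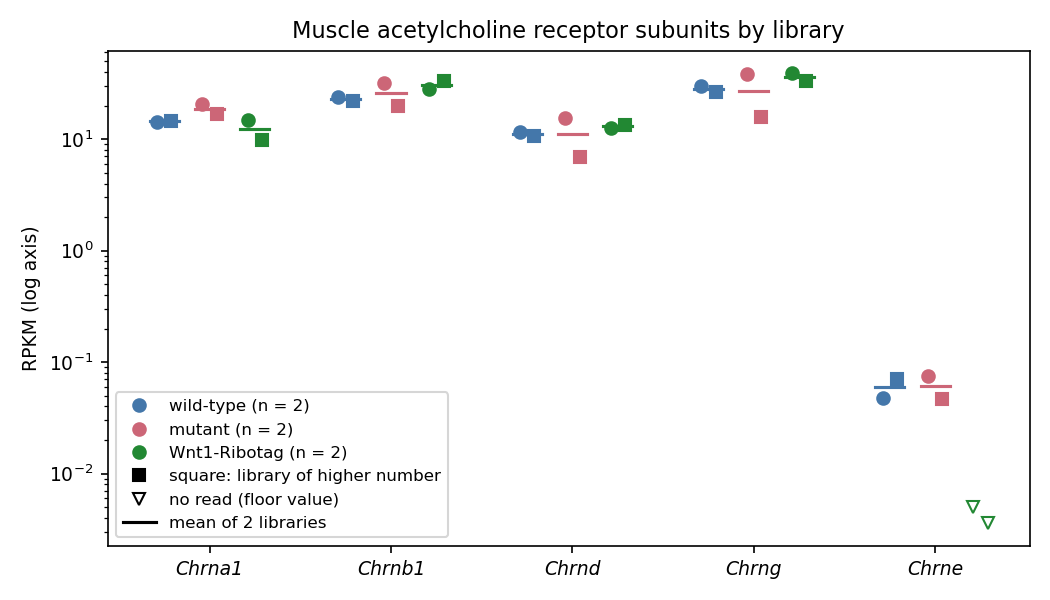
RPKM (log axis) of the 5 subunit genes in each library of wild-type, mutant and Wnt1-Ribotag diaphragm, with circles and squares for the libraries of lower and higher number, bars for the mean of 2 libraries and open triangles for floor values. Chrna1, Chrnb1, Chrnd and Chrng lie between 6.87 and 39.1 RPKM in all 6 libraries, and Chrne lies at 0.0745 RPKM or below.

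Chrna1 stood at 14.3 and 14.6 RPKM in wild-type 5 and 6, at 20.5 and 16.8 in mutants 1 and 2, and at 14.80 and 9.872 in Wnt1-Ribotag 1 and 2. Both mutant libraries were above both wild-type and both Wnt1-Ribotag libraries, and Wnt1-Ribotag 2 was the lowest. The group means were 14.4 ± 0.234 RPKM in wild-type, 18.6 ± 2.62 in mutant and 12.3 ± 3.48 in Wnt1-Ribotag libraries (SD, n = 2 each).

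Chrnb1 stood at 23.7, 22.2, 31.8, 19.9, 28.3 and 33.0 RPKM in the same order of libraries. Mutant 1 and both Wnt1-Ribotag libraries were high, and mutant 2 was the lowest. The means were 23.0 ± 1.04 RPKM in wild-type, 25.9 ± 8.40 in mutant and 30.6 ± 3.34 in Wnt1-Ribotag libraries (SD, n = 2 each).

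Chrnd stood at 11.5, 10.7, 15.6, 6.87, 12.6 and 13.5 RPKM. The mutant libraries lay on either side of all others, 2.27-fold apart, whereas those of the other groups were at most 1.08-fold apart. The means were 11.1 ± 0.611 RPKM in wild-type, 11.2 ± 6.15 in mutant and 13.1 ± 0.654 in Wnt1-Ribotag libraries (SD, n = 2 each).

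Chrng stood at 29.9, 26.3, 38.7, 15.7, 39.1 and 33.5 RPKM. Mutant 1 and the Wnt1-Ribotag libraries were high and mutant 2 was low, with the mutant libraries 2.46-fold apart. The means were 28.1 ± 2.57 RPKM in wild-type, 27.2 ± 16.2 in mutant and 36.3 ± 3.95 in Wnt1-Ribotag libraries (SD, n = 2 each). The order of the 4 genes by mean, Chrng, Chrnb1, Chrna1 and Chrnd, was the same in wild-type and in mutant muscle, with no overlap between neighbours in wild-type. In mutant muscle Chrng overlapped Chrnb1, and Chrnb1 overlapped Chrna1. In the Wnt1-Ribotag libraries Chrna1 and Chrnd overlapped.

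Chrne stood at 0.0473 and 0.0712 RPKM in wild-type 5 and 6 and at 0.0745 and 0.0464 in mutants 1 and 2, and was at the floor, without reads, in both Wnt1-Ribotag libraries. In whole muscle these levels correspond to 7.72, 26.7, 15.9 and 17.4 read equivalents, so they rest on few reads. The wild-type and mutant ranges overlapped. At the mean whole-muscle level of 0.0598 RPKM, 12.0 reads would fall on Chrne in Wnt1-Ribotag 1 and 16.7 in Wnt1-Ribotag 2. Taking 3 reads per library as the upper limit that 0 reads allows, the lowest measured whole-muscle level was 3.09-fold above the higher of the Wnt1-Ribotag limits. The whole-muscle levels were taken as measured, without a limit for their own few reads. Many low genes behaved alike: of 1608 genes above the floor in all 4 whole-muscle libraries at 1/2 to 2 times the level of Chrne, 396 or 24.6% were at the floor in both Wnt1-Ribotag libraries. The limit of 3 reads covers counting error in the Wnt1-Ribotag libraries only.

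Whether the mutant muscle, which lacks Schwann cells, held more or less receptor transcript was asked by comparing mutant with wild-type whole muscle. Chrna1 was higher in both mutant libraries than in both wild-type libraries, but no member passed the test, and Chrnb1, Chrnd and Chrng differed more between the mutant libraries than between the genotypes. The 4 members with a mean of at least 0.5 RPKM were tested with limma on log2(RPKM + 0.5) over 14052 genes, and Chrne did not pass that filter. Of the 4, 0 passed an adjusted p of 0.05, where 0.171% of all genes tested did (24 genes), and 1 had an unadjusted p under 0.05, as did 1691 of all genes. The count of 24 genes was 10 without mutant 2, 106 without wild-type 5, 90 without wild-type 6, 46 under median-ratio scaling, 149 under scaling to the muscle markers, and 0 with no filter or with all 6 libraries in a fit, and the count of members was 0 in each of these. The log2 fold change of Chrna1 was 0.35 (SE 0.15, 95% interval 0.013 to 0.69, adjusted p = 0.41 from limma), higher in 4 of 4 pairs of a mutant with a wild-type library. Being higher in both mutant libraries was shared by 12.7% of all genes tested. The log2 fold change was 0.13 for Chrnb1 (95% interval -0.35 to 0.62), -0.091 for Chrnd (-0.82 to 0.63) and -0.18 for Chrng (-0.98 to 0.62), with adjusted p-values of 0.78, 0.91 and 0.82 from limma. The median over the 4 members was 0.021, beside -0.10 over all genes tested. These intervals do not show that the groups were alike.

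The direction of 3 of these differences, those of Chrnb1, Chrnd and Chrng, turned when a mutant library was left out. Without mutant 2 the log2 fold change of Chrnd was 0.47 and that of Chrng 0.46, and without mutant 1 that of Chrnb1 was -0.20. With the libraries scaled by the median of gene ratios Chrnd was at 0.014. Chrna1 stayed between 0.21 and 0.49 with each library left out in turn. Scaled to the skeletal muscle markers it was at -0.11, on a scale on which the median over all genes moved from -0.10 to -0.52. The skeletal muscle markers, like the members, stood high in mutant 1: on the log2 scale their mean was 8.14 in mutant 1, 7.37 in mutant 2, 7.40 and 7.15 in wild-type and 7.54 and 7.33 in Wnt1-Ribotag libraries. Of the 15, 12 had a higher and 3 a lower mean in mutant than in wild-type muscle, and 0 passed the test. Their part in the values of the members was not tested. The values of the other marker lists stand beside these. The summed level of 8 hepatocyte markers, led by Afp and Alb, was 507 and 157 RPKM in wild-type, 20.4 and 12.4 in mutant and 294 and 195 in Wnt1-Ribotag libraries, and 2 of these markers, Afp and Alb, fell in mutant vs. wild-type muscle (adjusted p = 0.0082 and 0.031 from limma). Among the Schwann cell markers, Sox10 and Fabp7 also fell. The sum of 8 motor axon and neuron markers, led by Stmn2 and Nefl, was 11.5 and 48.2, 8.19 and 11.5, and 79.4 and 373. The sum of 6 connective tissue markers, led by Col3a1 and Col1a1, lay between 1917 and 2718 RPKM, and that of 5 erythroid markers, led by Hba-a1 and Hbb-y, between 2251 and 5481 RPKM. The motor neuron marker Mnx1 was at most 0.00666 RPKM and at the floor in 2 libraries.

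**Figure D2:**
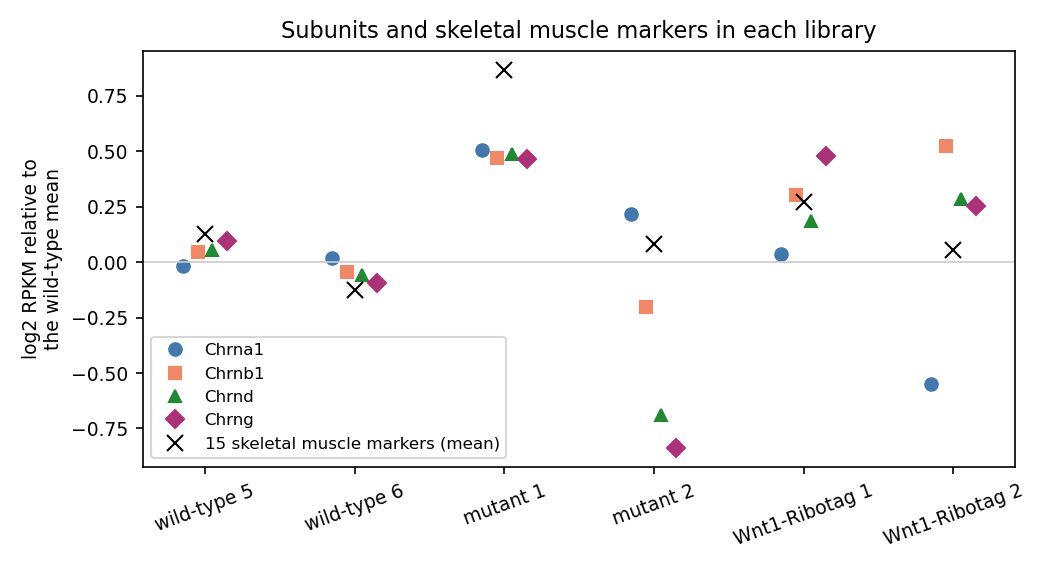
log2 RPKM of Chrna1, Chrnb1, Chrnd and Chrng and the mean log2 RPKM of 15 skeletal muscle markers in each library, relative to the mean of the wild-type libraries. All 4 genes stand together and below the muscle markers in mutant 1, and in mutant 2 they spread, with Chrna1 above and Chrnd and Chrng far below the wild-type mean.

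Scaled to the mean of the muscle markers, which sets the members against the amount of muscle RNA as those 15 genes measure it, Chrng was at 31.8 and 33.2 in wild-type, 24.5 and 17.2 in mutant and 37.5 and 37.4 in Wnt1-Ribotag libraries. Chrnb1 was at 25.2 and 28.1, 20.2 and 21.8, and 27.2 and 36.9, and Chrnd at 12.3 and 13.5, 9.89 and 7.52, and 12.1 and 15.1. On this scale these 3 genes were lower in both mutant libraries than in every other library. Chrna1, at 15.2 and 18.5, 13.0 and 18.3, and 14.2 and 11.0, overlapped between wild-type and mutant. The 3 of 4 members below both wild-type libraries stood beside 57.4% of all genes tested, where the median over all genes was -0.52 on the log2 scale. The log2 fold change of Chrng on this scale was -0.65 (adjusted p = 0.45 from limma), near that shift. No difference of a member on this scale passed the test. In mutant 2 the markers did not move together. Acta1 (506.8 RPKM) and Actn2 (62.7) were there below their wild-type levels (796.2 and 671.1, 115.5 and 119.6). Mylpf (2068) and Tnni2 (371) were above theirs (1293 and 994.9, 195.2 and 132.3). The scaled values of mutant 2 therefore depend on the markers averaged, and other choices of markers were not tried.

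**Figure D3:**
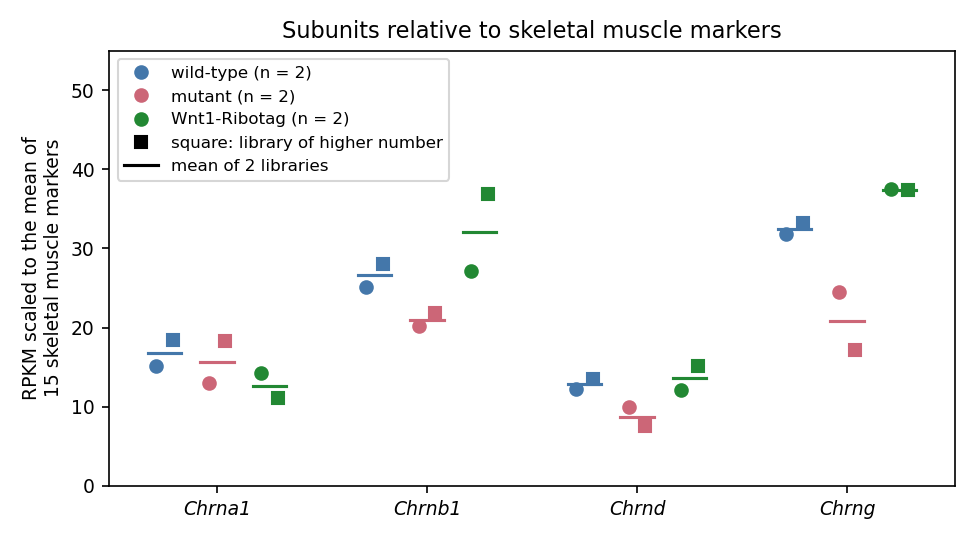
RPKM of 4 subunit genes after each library was scaled to the mean of 15 skeletal muscle markers, in wild-type, mutant and Wnt1-Ribotag libraries (circles and squares for lower and higher number, bars for the mean of 2 libraries). Chrnb1, Chrnd and Chrng are lower in both mutant libraries than in the other 4, on a scale on which 57.4% of all genes were lower in both mutant than in both wild-type libraries.

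The Wnt1-Ribotag libraries were compared with wild-type muscle to ask which transcripts stood higher in the tagged-ribosome RNA. Chrnb1, Chrnd and Chrng were higher in both Wnt1-Ribotag than in both wild-type libraries, Chrna1 overlapped, and no member passed the test. Of the 4 members tested among 14418 genes, 0 had an adjusted p under 0.05 and 0 an unadjusted p under 0.05, where 0.00694% of all genes tested (1 gene) and 2813 genes did. That count of 1 gene was 26 without wild-type 5, 67 without wild-type 6, 138 with all 6 libraries in a fit, 510 under scaling to the muscle markers and 0 with no filter, with 0 members in each. Being higher in both libraries was shared by 23.3% of all genes tested. The log2 fold change was 0.41 for Chrnb1 (SE 0.17, 95% interval -0.031 to 0.84), 0.36 for Chrng (SE 0.18, -0.092 to 0.81) and 0.23 for Chrnd (SE 0.17, -0.20 to 0.65), with adjusted p-values of 0.28, 0.33 and 0.50 from limma. That of Chrna1 was -0.25 (SE 0.24, -0.85 to 0.36, adjusted p = 0.60). The median over the 4 members was 0.29, beside -0.051 over all genes tested. With no filter Chrne had a log2 fold change of -0.15 (adjusted p = 0.145 from limma), which the pseudocount sets for a gene this low. Scaled to the muscle markers, 1 member (Chrng) was higher in both Wnt1-Ribotag libraries, as were 12.3% of all genes tested, and 1 (Chrna1) was lower in both, as were 33.6%.

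Schwann cell markers had larger fold changes than the members in this comparison. The summed level of the 9 markers, led by Ngfr and Fabp7, was 43.6 and 37.1 RPKM in wild-type, 25.5 and 13.8 in mutant and 157 and 359 in Wnt1-Ribotag libraries. All 9 had a higher mean in the Wnt1-Ribotag than in the wild-type libraries, with a median log2 fold change of 2.93, and 0 passed the test. Single Wnt1-Ribotag libraries decided whether members passed: without Wnt1-Ribotag 1, Chrna1 (log2 fold change -0.53, adjusted p = 0.029) and Chrnb1 (0.52, adjusted p = 0.027) passed, and without Wnt1-Ribotag 2, Chrng did (0.47, adjusted p = 0.035), all from limma. In those fits, in which a lone library was assumed to vary like the other group, 4482 and 5965 genes passed in all. Without Wnt1-Ribotag 2 the fold change of Chrna1 turned to 0.034.

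Compared with mutant muscle, Chrna1 was lower in both Wnt1-Ribotag libraries and the other 3 genes overlapped. Of the 4 members tested among 14325 genes, 0 had an adjusted and 0 an unadjusted p under 0.05, where 1.19% of all genes tested (171 genes) and 2758 genes did. That count of 171 genes was 112 without mutant 2 and also with no filter, 83 under quantile normalization, 532 under scaling to the muscle markers, 692 with all 6 libraries in a fit and 842 with a replicate block, with 0 members in each, and 3672 without Wnt1-Ribotag 2, again with 0 members. The log2 fold change of Chrna1 was -0.60 (SE 0.27, 95% interval -1.25 to 0.057, adjusted p = 0.29 from limma), lower in 4 of 4 pairs. Being lower in both libraries was shared by 24.4% of all genes tested. The log2 fold change was 0.54 for Chrng (95% interval -0.44 to 1.53), 0.32 for Chrnd (-0.59 to 1.22) and 0.27 for Chrnb1 (-0.40 to 0.95), with adjusted p-values of 0.51, 0.68 and 0.63. Without mutant 2 these 3 values were -0.095, -0.25 and -0.057, so their direction rested on that library. Without Wnt1-Ribotag 1 Chrna1 passed (-0.88, adjusted p = 0.031 from limma), in a fit with 2538 genes past the threshold. Without Wnt1-Ribotag 2 it was at -0.32 (adjusted p = 0.32 from limma), and scaled to the muscle markers at -0.29 (adjusted p = 0.95). Scaled to the muscle markers, 3 members were higher in both Wnt1-Ribotag libraries, as were 35.5% of all genes tested. Among the markers, 7 of 9 Schwann cell, 6 of 8 hepatocyte, 1 of 6 tested neuron and 1 of 5 erythroid genes passed as higher in Wnt1-Ribotag. Of the 15 skeletal muscle markers, 11 had a lower and 4 a higher mean. Among those 15, Mylpf passed as lower (log2 fold change -1.46, adjusted p = 0.0496 from limma). The part of these markers in the values of the members was not tested. The comparisons share libraries, so their values are not independent of each other.

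**Figure D4:**
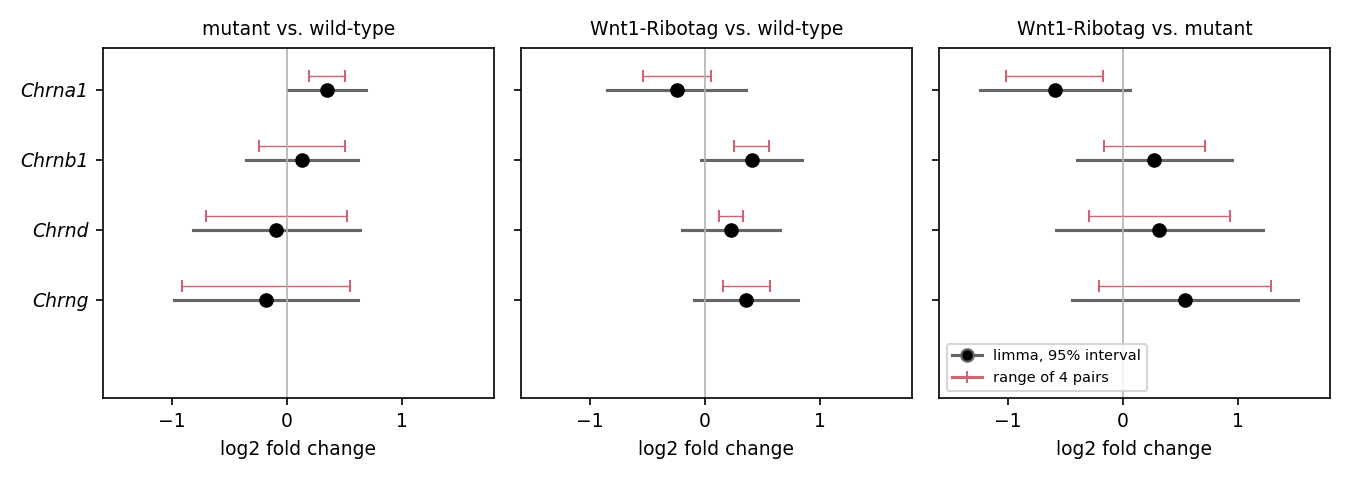
log2 fold changes of Chrna1, Chrnb1, Chrnd and Chrng in the 3 comparisons, with points and dark lines for the limma estimate and its 95% interval and light lines for the lowest and highest of the 4 pairs of libraries. Chrna1 lies above 0 in mutant vs. wild-type (0.35 beside a median over all genes of -0.10, and -0.11 beside -0.52 when scaled to the muscle markers) and below 0 in Wnt1-Ribotag vs. mutant (-0.60), and no member passed an adjusted p of 0.05.

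The ratio of the fetal γ to the adult ε subunit transcript was far above 1 in all whole-muscle libraries. The RPKM of Chrng over that of Chrne came to 632 and 369 in wild-type 5 and 6 and to 519 and 339 in mutants 1 and 2. The wild-type and mutant ranges overlapped. In the Wnt1-Ribotag libraries, where Chrne had no reads, the ratio was at least 2603 and at least 3112, with Chrne set at 3 reads. On the log2 scale the mean ratio was 8.92 ± 0.549 for wild-type and 8.71 ± 0.435 for mutant muscle (SD, n = 2 each), a difference of -0.20 (exact permutation test, two-sided, p = 0.67). This difference was 0.10 without mutant 2 and 0.18 without wild-type 5, so its direction rested on single libraries. The lower bound in the Wnt1-Ribotag libraries was 2.56 above wild-type and 2.76 above mutant muscle on the log2 scale, with no overlap (exact permutation test, two-sided, p = 0.33 in both cases). The whole-muscle ratios entered as measured, without a limit for the few Chrne reads behind them. With a pseudocount of 0.5 on both subunits, which exceeds the level of Chrne, the differences from wild-type and mutant were 0.49 and 0.67. The Wnt1-Ribotag and mutant libraries then overlapped (exact permutation test, p = 0.67). With a pseudocount of 0.1, which also exceeds that level, the differences were 0.86 and 1.05 (exact permutation test, two-sided, p = 0.33 in both cases). With 2 libraries against 2 the test cannot give a p below 0.33.

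**Figure D5:**
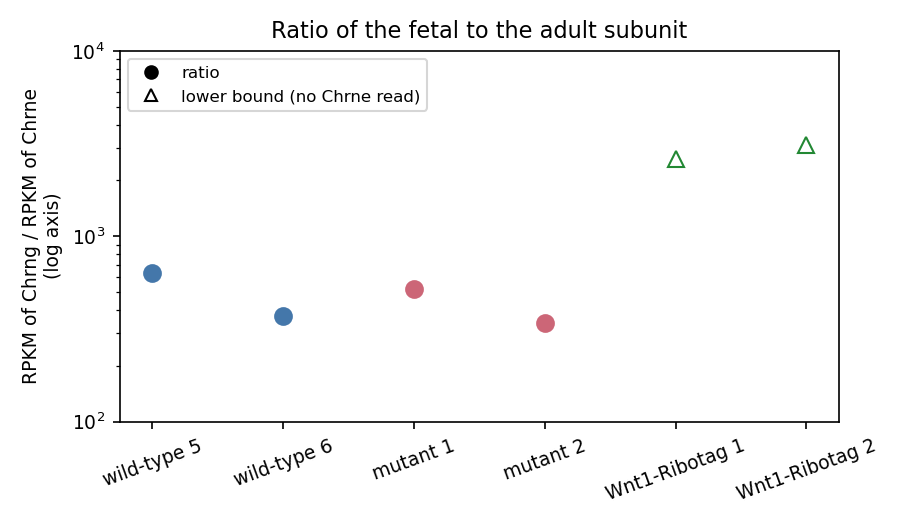
Ratio of the RPKM of Chrng to that of Chrne (log axis) in each library, with filled circles for ratios and open triangles for lower bounds where Chrne had no reads. The 4 whole-muscle libraries lie between 339 and 632, and the bounds of the Wnt1-Ribotag libraries are 2603 and 3112.

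Ratios between the fetal subunits were formed within each library. The ratio of Chrnd to Chrng was 0.386 and 0.406 in wild-type, 0.403 and 0.438 in mutant and 0.323 and 0.404 in Wnt1-Ribotag libraries, 1.36-fold from the lowest to the highest. Chrnd and Chrng are the neighbours on chromosome 1. The ratio of Chrnb1 to Chrnd ranged 1.42-fold, from 2.04 in mutant 1 to 2.90 in mutant 2. Without mutant 2 these ranges were 1.26-fold for Chrnd to Chrng and 1.19-fold for Chrnb1 to Chrnd, so their order rested on that library. The ratio of Chrna1 to Chrng ranged 3.62-fold, from 0.295 in Wnt1-Ribotag 2 to 1.07 in mutant 2, and was between 0.379 and 0.556 in the other libraries. Mutant 2 thus held about as much Chrna1 as Chrng by RPKM, and no other library did. In mutant 1 the ratio of Chrna1 to Chrng was 0.530, between the wild-type values of 0.477 and 0.556.

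Genes with the most similar profile were sought by the root-mean-square (RMS) difference of log2(RPKM + 0.5), centred on each gene's mean over the 6 libraries, among 14319 other genes. Nearest to Chrna1 was Lmod3 (RMS difference 0.076), which encodes an actin filament nucleator of striated muscle, followed by Ccdc141 (0.10) and Map7d3 (0.10). Lmod3 stood at 19.5 and 17.8 RPKM in wild-type, 28.7 and 21.8 in mutant and 21.0 and 13.7 in Wnt1-Ribotag libraries, with Wnt1-Ribotag 2 lowest as for Chrna1. The other fetal subunits ranked between 8412 and 11230 in likeness to Chrna1. Nearest to Chrng were Shisal1 (0.079), Myom3 (0.093), which encodes a protein of the sarcomere's M-band, and Camk2a (0.10), a calcium/calmodulin-dependent kinase. Chrnd ranked 17 and Chrnb1 218 in likeness to Chrng. Nearest to Chrnd were Sel1l3 (0.045), Ehbp1l1 (0.060) and Hhatl (0.072), and Chrng ranked 35 and Chrnb1 78. Nearest to Chrnb1 were Gm3512 (0.042), Irgm2 (0.054), an immunity-related GTPase, and Dnajb5 (0.065), a DnaJ-family cochaperone. Chrnd ranked 202, Chrng 2386 and Chrna1 9755 in likeness to Chrnb1. For Chrne, whose level lies under the pseudocount, the profile was nearly flat, 428 genes lay within 0.1, and the nearest were Cdk2, Mfap3l and Nub1. These ranks describe 6 libraries of 3 kinds, which differ in depth and in the levels of the cell type markers.

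Genes that cluster the receptor beneath the nerve were expressed in every library, and none passed the test. Of 19 genes of the postsynaptic apparatus and its signals, all were tested and 0 passed in any of the 3 comparisons. Their median log2 fold change was -0.18 in mutant vs. wild-type, -0.31 in Wnt1-Ribotag vs. wild-type and -0.089 in Wnt1-Ribotag vs. mutant, beside -0.10, -0.051 and 0.036 for all genes tested. Rapsn, the scaffold that holds receptors in clusters, was at 23.0 and 20.9 RPKM in wild-type, 27.8 and 18.4 in mutant and 21.6 and 15.9 in Wnt1-Ribotag libraries. Like Chrna1 and Chrnd it was highest in mutant 1, and the groups of whole muscle overlapped. Agrn, the gene of the nerve- and muscle-made clustering signal agrin, was at 36.4 and 38.3, 28.9 and 20.8, and 26.3 and 23.8 RPKM in the same order. Both mutant libraries were lower than both wild-type libraries, as for 37.4% of all genes tested (log2 fold change -0.60, 95% interval -0.99 to -0.20, adjusted p = 0.30 from limma). Crk, an adaptor that acts with Dok7 downstream of the kinase MuSK, was at 74.0 and 85.9, 79.7 and 78.2, and 119.8 and 102.1 RPKM. The other of the 4 most abundant genes of this list was Gabpa, a subunit of the N-box binding factor GABP, at 15.1 and 15.7, 15.8 and 15.1, and 19.8 and 17.4 RPKM. Mutant and wild-type muscle differed by 0.0039 on the log2 scale (95% interval -0.29 to 0.30, adjusted p = 0.99 from limma).

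Of 18 transcription factors of the receptor genes and their regulators, 17 were tested and 0 passed in any comparison. Their median log2 fold change was -0.067, -0.050 and -0.0048 in the comparisons in the same order. In mutant vs. wild-type the values ran from -0.94 for Runx1 to 1.125 for Myf6 (adjusted p = 0.15 and 0.11 from limma). Runx1 was at 2.89 and 4.23 RPKM in wild-type and 1.41 and 1.79 in mutant, lower in both as for 37.4% of all genes tested. Myf6 was at 7.48 and 6.30 in wild-type and 19.3 and 12.6 in mutant, higher in both as for 12.7%. Myog, the gene of the E-box factor myogenin, was at 265.9 and 212.4 RPKM in wild-type, 312.8 and 231.6 in mutant and 160.0 and 172.2 in Wnt1-Ribotag libraries. It was lower in both Wnt1-Ribotag libraries than in the others, as were 31.0% of all genes tested against wild-type and 24.4% against mutant (log2 fold change -0.52 against wild-type, adjusted p = 0.24, and -0.70 against mutant, adjusted p = 0.21, from limma), while Chrng was not. Id3, an inhibitor of E-box factors, was at 86.2 and 85.2, 66.4 and 76.5, and 62.4 and 84.6 RPKM. Tcf3, which encodes a partner of the MyoD family, was at 53.8 and 54.8, 46.8 and 41.1, and 42.8 and 47.8 RPKM. Both were lower in both mutant than in both wild-type libraries, as were 37.4% of all genes tested, with log2 fold changes of -0.26 and -0.30 and adjusted p-values of 0.45 and 0.42 from limma. Myod1 was at 55.1 and 52.1, 55.2 and 35.0, and 30.5 and 38.6 RPKM.

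Of the 11 subunits of neuronal and other non-muscle nicotinic receptors, 2 passed the filter in mutant vs. wild-type and 6 in each comparison with the Wnt1-Ribotag libraries. None passed the test. Chrna4 and Chrna7 passed the filter in all comparisons, and the other 4 (Chrna3, Chrna5, Chrnb2 and Chrnb4) only with the Wnt1-Ribotag libraries, where they were high, so no count or median over the 6 is given. Chrna4 was at 7.16 and 6.05 RPKM in wild-type, 10.1 and 4.47 in mutant and 13.3 and 8.92 in Wnt1-Ribotag libraries, below Chrnd in each whole-muscle library. Chrna7 was at 0.628 and 1.13, 0.680 and 0.560, and 1.40 and 2.15 RPKM. Chrna3, a subunit of ganglionic receptors, was at 0.0561 and 0.846, 0.0201 and 0.0179, and 0.171 and 5.31 RPKM, so that its level in Wnt1-Ribotag rested on Wnt1-Ribotag 2. Chrnb2 was at 0.105 and 0.460, 0.0837 and 0.0861, and 1.32 and 2.69 RPKM. Chrna9, which did not pass the filter and was picked out after its values were seen, stood lower in the Wnt1-Ribotag libraries, at 0.195 and 0.147, 0.162 and 0.224, and 0.00327 and 0.00234 RPKM. It was at the floor in 1 library, and its Wnt1-Ribotag values are at or near the floor. The neuronal marker Stmn2 was at 2.51 and 15.5, 1.81 and 2.69, and 42.9 and 210.7 RPKM, and its part in the values of these genes was not tested.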

How the data were processed

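The 6 RNA-Seq libraries were grouped by their labels into wild-type, mutant and Wnt1-Ribotag, with 2 in each. The authors deposited RPKM per gene with a mark for floor values. The submitters' processing notes name STAR and mm9, without a role. The program behind the RPKM was not given in the sources used here. Of 23076 entries per file, 3 held no value. Symbols were matched for 21583 gene identifiers and not for 1490, and positions came from GENCODE M21 on GRCm38.

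Depth was computed from 223 microRNA genes, as 1 read over gene length with an offset of 2 bases, and 81.2% of these agreed within 0.0001. Read equivalents of Chrne are its RPKM over its floor value, set from the Wnt1-Ribotag libraries and the ratio of floors between libraries, and need not be whole. Depth limits Chrne, and read counts were not used here.

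Genes with a mean of at least 0.5 RPKM over the 4 libraries compared were tested on log2(RPKM + 0.5) with limma 3.58.1 under R 4.3.3 (lmFit, and eBayes with a mean trend). The Benjamini-Hochberg adjustment ran over all genes, with a threshold of 0.05. Fold changes on this scale understate those of low genes. The ratio of Chrng to Chrne was compared by exact permutation tests. Python 3.11.15 with pandas 2.3.3 and numpy 2.4.6 made the tables, and matplotlib 3.10.9 the figures. The limma step was tested on simulated data.

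The members, gene lists and tests were chosen with earlier results of these data known. Named were all members, the 4 genes of each list with the highest mean RPKM and any past the threshold, the 3 genes nearest to each member and the 2 highest of each marker list. Sox10, Mnx1, Chrna5, Chrna9, Chrnb4, Myf6, Runx1, Actn2 and Tnni2 were added after their values were seen. Alternatives covered the pseudocount (0.1, 1), the filter (none, a mean of at least 1 RPKM), the scaling (median ratio, quantile, muscle markers), the eBayes trend (none), the fit (all 6 libraries, a replicate block) and each library left out. The counts of members without overlap under other scalings, and blocks that pair mutant with wild-type libraries, were added after seeing the data.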

Additional observations from a re-analysis of the deposited data

How the results depend on the processing

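With 2 libraries per group, single libraries decided directions and calls. The number of members past the threshold was 0 under every alternative, except that leaving out a library gave 0 to 2 in Wnt1-Ribotag vs. wild-type and 0 to 1 in Wnt1-Ribotag vs. mutant. Reversed directions in mutant vs. wild-type were Chrnd under median-ratio scaling (0.014) and quantile normalization (0.017), Chrna1 (-0.11) and Chrnb1 (-0.33) under scaling to the muscle markers, Chrnb1 without mutant 1 (-0.20), and Chrnd (0.47) and Chrng (0.46) without mutant 2. In Wnt1-Ribotag vs. wild-type, Chrna1 reversed without Wnt1-Ribotag 2 (0.034). In Wnt1-Ribotag vs. mutant, Chrnb1 (-0.057), Chrnd (-0.25) and Chrng (-0.095) reversed without mutant 2. Leaving out a library gave -0.20 to 0.46 for Chrnb1, -0.65 to 0.47 for Chrnd and -0.82 to 0.46 for Chrng in mutant vs. wild-type, -0.53 to 0.034 for Chrna1 in Wnt1-Ribotag vs. wild-type, and -0.88 to -0.32 for Chrna1, -0.057 to 0.60 for Chrnb1, -0.25 to 0.88 for Chrnd and -0.095 to 1.18 for Chrng in Wnt1-Ribotag vs. mutant. Of 168 alternative fold changes, 153 kept their direction and side of the threshold, 11 reversed and 4 passed the threshold, all 4 with a Wnt1-Ribotag library left out. Scaling to the muscle markers moved the members without overlap from 1 to 0 higher and from 0 to 3 lower in mutant vs. wild-type, from 3 to 1 higher and from 0 to 1 lower in Wnt1-Ribotag vs. wild-type, and from 0 to 3 higher and from 1 to 0 lower in Wnt1-Ribotag vs. mutant. The same scaling shifted the median of all genes to -0.52, -0.20 and 0.31 in these comparisons.

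The difference in the log2 ratio of Chrng to Chrne between mutant and wild-type muscle ranged from -0.59 to 0.18 when a library was left out, and was 0.10 without mutant 2. With a pseudocount of 0.5 on both subunits the differences of the Wnt1-Ribotag libraries fell to 0.49 against wild-type and 0.67 against mutant, since the pseudocount exceeds the level of Chrne.

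Mutant and Wnt1-Ribotag libraries share only replicate numbers (correlation of deviations 0.168 over 14325 genes, 2 pairs). With a replicate block, 842 genes passed in place of 171, and 0 members, with adjusted p-values of 0.22, 0.63, 0.63 and 0.32 for Chrna1, Chrnb1, Chrnd and Chrng. The study compared mutant with wild-type samples in pairs, but the labels do not say which libraries those were, so both pairings were fitted as a replicate block after seeing the data. With mutant 1 and wild-type 5 paired, 574 genes passed, and with mutant 1 and wild-type 6 paired, 29, in place of 24. The number of members past the threshold was 0 in both, with adjusted p-values of Chrna1 of 0.32 and 0.41.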
